A study of Mus musculus with 10 samples.

Results

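The 50 genes described here encode the machinery that copies DNA and the enzymes that supply its deoxynucleotides. They were chosen by name, from origin licensing through the replication fork to deoxynucleotide synthesis, and each symbol was matched through its Ensembl identifier to one row of a mouse count table of 35375 features. All 50 were found, and all 50 were among the 19511 features that passed a filter on low counts. Their lowest count in any library was 191.

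The libraries came from the thymus of C57BL/6J mice, taken 3 days after birth. Usp7 encodes a protease of the ubiquitin system, which can spare its substrates from degradation, and the study's question in these animals, as its labels put it, was what loss of 1 or both Usp7 alleles did to gene expression. Per the labels, the homozygous KO group (n = 3) was to lack both alleles in the hematopoietic system, the heterozygous KO group (n = 3) 1 allele there, and the wild-type group (n = 4) none. According to the series, 2 of the wild types carried induced cre and 2 did not, but the labels do not say which. The titles of wild types 1 and 2 hold 2 wt words and those of wild types 3 and 4 hold 1, to which their columns in the count table add the word het; all 4 were grouped by their titles, and what these words stand for is not given. The promoter behind the cre is not given in the sources used here, and cells outside the blood lineages would keep Usp7. Each library was ribosomal RNA-depleted total RNA from a whole thymus, so fewer cells of a type and less RNA per cell cannot be told apart. Nothing in the labels says whether 2 libraries shared a litter, and p-values measure only the spread between these libraries.

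Replication is prepared in G1, when the origin recognition complex, Cdc6 and Cdt1 load the ring-shaped MCM helicase onto DNA, a step called licensing. In S phase the Cdc7-Dbf4 kinase and the proteins Cdc45 and GINS switch the helicase on, polymerases copy both strands behind it, and ribonucleotide reductase and thymidylate synthase keep up the nucleotide supply. Most of these genes are transcribed in dividing cells under the control of E2F factors, and in the thymus of a newborn mouse the dividing cells are mainly immature thymocytes.

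Library totals ran from 39833850 to 122380785 counts. Usp7 itself, on chromosome 16, measured 303, 422 and 408 CPM (counts relative to library size, scaled by trimmed mean of M values) in homozygous KO 1, 2 and 3, 472, 516 and 516 CPM in heterozygous KO 1, 2 and 3 and 676, 670, 594 and 589 CPM in wild types 1 to 4. The 3 groups did not overlap, and the homozygous mean was 59.7% of wild type (adjusted p = 0.00052). The heterozygous mean was 79.2% of wild type, which did not pass the adjustment over all features (adjusted p = 0.608). These counts cover the whole gene and do not show which part was deleted or in what share of cells. For Usp7 alone, the exact two-sided permutation test of either knockout group against the wild types reached p = 0.0286, which is as low as 3 against 4 libraries can go. The thymocyte genes Cd3e, Cd4, Cd8a and Rag1 ran from 396 CPM for Cd3e to 6622 CPM for Rag1, so the libraries carried the defining transcripts of thymus.

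Homozygous loss of Usp7 came with higher levels of most of these genes. Of the 50, 39 were called higher in homozygous KO than in wild type and 0 were called lower, at an adjusted p under 0.05 over all 19511 features. Over all features 12.5% were called higher and 13.2% lower. The changes were small: the median log2 fold change was 0.36, a 1.28-fold rise, and single genes ran from -0.05 to 0.58, beside a median of -0.01 over all features. In 40 of the 50 every homozygous library lay above every wild type, an arrangement found for 16.3% of all features. At an unadjusted p under 0.05, 42 of the 50 passed, against 37.4% of all features.

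**Figure D1:**
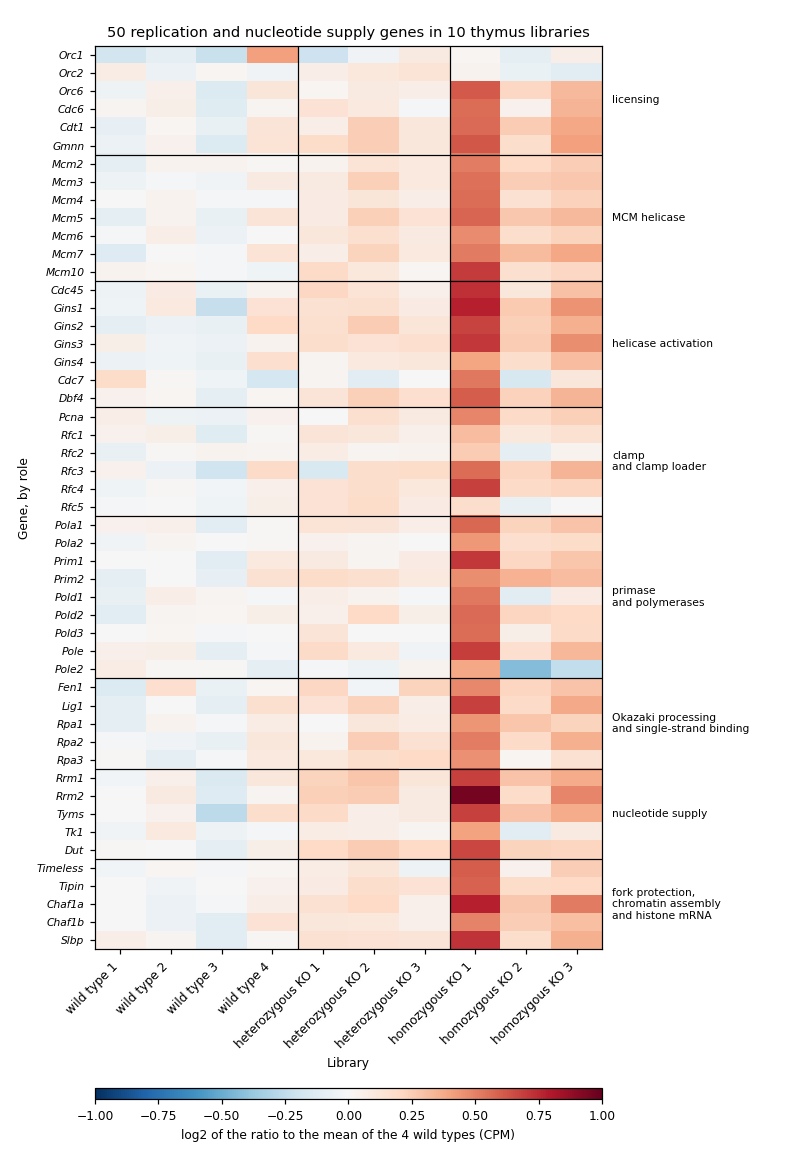
Heat map of the 50 genes, in rows grouped by role, over the 10 libraries in columns, with color showing the log2 ratio of each library's CPM to the mean of the 4 wild types. Homozygous KO 1 was the highest of the 10 libraries for 47 genes, the heterozygous libraries stayed close to wild type, and Orc1, Orc2, Rfc2, Rfc5 and Pole2 showed no steady rise across the homozygous KO columns.

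The size of the rise differed between the 3 homozygous libraries. Taken over the 50 genes, the median log2 ratio to the wild-type mean was 0.56 in homozygous KO 1, 0.19 in homozygous KO 2 and 0.28 in homozygous KO 3, while the wild types themselves ran from -0.07 to 0.05. Homozygous KO 1 was the highest of all 10 libraries for 47 of the 50 genes, which held for 15.7% of all features, and homozygous KO 3 exceeded homozygous KO 2 for 45. The rise was present without homozygous KO 1, where the median log2 fold change was 0.24, beside -0.01 over all features. The other homozygous libraries both lay above every wild type for 40 genes, and the fit without homozygous KO 1 called 31 genes higher and 1 lower (Pole2). For these counts the shares over all features were not worked out, and fewer homozygous libraries separate from the wild types more easily. Numbers in the sample titles fall into a range from 44 to 51, which holds homozygous KO 1, heterozygous KO 1 and wild types 1 to 3, and a range from 56 to 63, which holds the other 5 libraries. Within the first range the median difference between homozygous KO and wild type was 0.58 on the log2 scale and positive for 50 of 50 genes. Within the second it was 0.16 and positive for 44 genes, including 39 of the 39 called. Those 39 were picked by a fit that included these libraries, so their count is not separate support. Homozygous KO 1 is the only homozygous library in its range, so the library and the range cannot be told apart. Transcripts of Xist, which mark female cells, exceeded 100 CPM in 1 homozygous, 0 heterozygous and 3 wild-type libraries, and with that as a covariate 26 of the genes were called. Against wild types 3 and 4 alone the call was made for 9 genes, and against wild types 1 and 2 alone for 20. The median log2 fold change of the 50 was 0.35 and 0.36 in these fits, so the number of calls fell while the median stayed. Shares of all features called in these fits and with the Xist covariate were not worked out.

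Promoter sequence was set beside these changes because E2F factors are the textbook regulators of many of these genes. RefSeq promoters (GRCm38.p6, 250 bases before to 50 after each start) were at hand for 41 of the 50 genes. The E2F-type letters TTTNNCGC, searched on both strands and with N as any base, occurred in 15 of the 41, or 36.6%, compared with 5.93% of all 27025 genes with a promoter and 8.99% of the tested ones. The share was 35.5% of the 31 genes called higher and 40% of the 10 not called, so presence of these letters did not separate the genes called from those not called. The letters CCAAT, the box bound by NF-Y, occurred in 58.5% of the 41 and in 42% of tested genes, with 67.7% of the called and 30% of the uncalled genes. TTTGAA, the core of the cell cycle homology region, occurred in 17.1% of the 41 and in 14.8% of tested genes. Matches of different letters may share bases, and a match describes the sequence and is not a measured binding site.

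Most of the 41 genes hold no TTTNNCGC match in the 150 bases before the start, among them Mcm2, Pcna and Rrm2. The stretches shown come from genes that do hold one and are not typical of the list. The 150 bases before the start are given for 3 genes that rose (Cdc6, Mcm6 and Gins3) and 1 that was not called (Orc1), with each TTTNNCGC match on either strand in capitals. They lie at chr11:98908001-98908150 on the plus strand, chr1:128359706-128359855 on the minus strand, chr8:95633409-95633558 on the plus strand and chr4:108579304-108579453 on the plus strand of GRCm38.p6, and each is written 5′ to 3′ toward its gene.
Cdc6: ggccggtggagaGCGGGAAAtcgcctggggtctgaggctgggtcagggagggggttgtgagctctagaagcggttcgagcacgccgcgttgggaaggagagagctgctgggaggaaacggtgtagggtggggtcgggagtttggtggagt
Mcm6: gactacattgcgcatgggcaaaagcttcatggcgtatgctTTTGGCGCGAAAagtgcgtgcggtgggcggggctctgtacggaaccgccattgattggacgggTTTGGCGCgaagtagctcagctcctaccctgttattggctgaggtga
Gins3: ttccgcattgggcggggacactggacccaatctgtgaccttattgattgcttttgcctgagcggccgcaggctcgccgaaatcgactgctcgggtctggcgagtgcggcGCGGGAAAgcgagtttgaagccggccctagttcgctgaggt
Orc1: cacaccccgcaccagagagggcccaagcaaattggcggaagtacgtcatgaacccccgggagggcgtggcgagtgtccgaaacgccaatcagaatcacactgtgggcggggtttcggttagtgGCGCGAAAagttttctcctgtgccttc
The capitals of Mcm6 form 2 separate stretches, the first of which holds a pair of overlapping matches on opposite strands. In Gins3 the match began at position -41 relative to the start, in Orc1 at -27 and in Cdc6 at -138.

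Licensing genes were mixed. Of the 6, 4 rose and 2 were not called, with a median log2 fold change of 0.36. Cdt1, which brings the MCM ring to the origin, measured 171, 138 and 151 CPM in homozygous KO 1 to 3, 121, 137 and 125 CPM in heterozygous KO 1 to 3 and 109, 117, 110 and 126 CPM in wild types 1 to 4. Every homozygous library exceeded every wild type (log2 fold change 0.41 ± 0.08, adjusted p = 0.00329), and homozygous KO 2 was just above heterozygous KO 2. Gmnn (geminin), the inhibitor that holds Cdt1 in check, measured 70.9, 52.1 and 61.3 CPM in homozygous KO 1 to 3, 52.2, 54.7 and 49.8 CPM in heterozygous KO 1 to 3 and 44.2, 47.5, 41.9 and 50.6 CPM in wild types 1 to 4. Its rise was of the same size as that of Cdt1 (log2 fold change 0.42 ± 0.10, adjusted p = 0.0105). Orc6, the smallest subunit of the origin recognition complex, stood at 74.4, 56.1 and 60.8 CPM in homozygous KO 1 to 3, 49.3, 51.7 and 50.9 CPM in heterozygous KO 1 to 3 and 47, 50.2, 44.2 and 52.9 CPM in wild types 1 to 4. All homozygous libraries again lay above the other 7 (log2 fold change 0.39 ± 0.09, adjusted p = 0.0105). Cdc6, which joins the origin recognition complex to load the helicase, also rose (log2 fold change 0.33), a call lost under 10 of 16 alternative settings, with homozygous KO 2 inside the wild-type range, the one called gene whose groups overlapped.

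The other two origin recognition subunits on the list did not follow Orc6. Orc1, the largest, ATP-binding subunit, measured 31.9, 29.4 and 33 CPM in homozygous KO 1 to 3, 27.3, 30.8 and 33.5 CPM in heterozygous KO 1 to 3 and 27.7, 29.4, 27 and 42 CPM in wild types 1 to 4. Wild type 4 was the highest of the 10 libraries and the groups overlapped (log2 fold change -0.01 ± 0.14, adjusted p = 0.977, 95% interval -0.32 to 0.31). Orc2, a core subunit, measured 60.3, 56.2 and 54.8 CPM in homozygous KO 1 to 3, 61.7, 63.4 and 64.6 CPM in heterozygous KO 1 to 3 and 62, 56.6, 59.5 and 57.3 CPM in wild types 1 to 4. The homozygous libraries lay within or below the wild-type values, and all 3 were below the 3 heterozygous libraries (log2 fold change -0.04 ± 0.06, adjusted p = 0.608, 95% interval -0.17 to 0.08). Of the complex's other subunits, Orc3, Orc4 and Orc5 gave log2 fold changes of -0.08, -0.15 and -0.05, and none was called. They were named after their values were seen.

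All 7 genes of the MCM helicase group, the ring subunits Mcm2 to Mcm7 and Mcm10, which acts when the helicase is activated, were called higher, with log2 fold changes from 0.30 to 0.41. The call of Mcm10 was lost under 9 of the 16 alternatives, among them library totals alone and each wild type left out, and its fold change was 0.18 without homozygous KO 1. Mcm7, one of the 6 subunits of the ring, measured 579, 503 and 530 CPM in homozygous KO 1 to 3, 423, 472 and 433 CPM in heterozygous KO 1 to 3 and 371, 403, 401 and 444 CPM in wild types 1 to 4. All 3 homozygous libraries were above the other 7 (log2 fold change 0.41 ± 0.07, adjusted p = 0.00189). The gene also hosts the microRNAs Mir106b, Mir93 and Mir25 and overlaps Ap4m1 and Cops6 on the other strand. Mcm5, also a ring subunit, measured 500, 404 and 418 CPM in homozygous KO 1 to 3, 355, 395 and 369 CPM in heterozygous KO 1 to 3 and 312, 342, 318 and 366 CPM in wild types 1 to 4. Heterozygous KO 2, at 395 CPM, came close to homozygous KO 2 (log2 fold change 0.40 ± 0.08, adjusted p = 0.00496). For the remaining ring subunits the rise was 1.26-fold in Mcm2, 1.29-fold in Mcm3, 1.25-fold in Mcm4 and 1.23-fold in Mcm6.

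Helicase activation genes had a median log2 fold change of 0.40, and 6 of the 7 were called. GINS, a ring of 4 small subunits that joins Cdc45 and the MCM ring in the active helicase, rose in all 4 subunits. Gins1 measured 47.8, 33.4 and 38 CPM in homozygous KO 1 to 3, 31, 31.1 and 29.6 CPM in heterozygous KO 1 to 3 and 27.1, 29.9, 23.8 and 30.8 CPM in wild types 1 to 4, with homozygous KO 1 far above the rest (log2 fold change 0.51 ± 0.12, adjusted p = 0.00972). Gins2 measured 32.2, 23.8 and 25.8 CPM in homozygous KO 1 to 3, 22.5, 24 and 21.9 CPM in heterozygous KO 1 to 3 and 18.9, 19.4, 19.2 and 23.2 CPM in wild types 1 to 4, and its highest wild type was just below its lowest homozygous library (log2 fold change 0.44 ± 0.11, adjusted p = 0.0139). Gins3 measured 37.8, 27.6 and 32 CPM in homozygous KO 1 to 3, 26.2, 25.6 and 26 CPM in heterozygous KO 1 to 3 and 24.2, 22.6, 22.2 and 23.7 CPM in wild types 1 to 4, with every heterozygous library between the other 2 groups (log2 fold change 0.49 ± 0.09, adjusted p = 0.0033). The fourth subunit, Gins4, rose less, with a log2 fold change of 0.30. The calls of Gins2 and Gins4 were lost under 2 and 3 of the 16 alternatives. Both were lost without homozygous KO 1, where the fold changes were 0.29 and 0.24.

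Cdc45, the partner of GINS, measured 115, 75 and 84.8 CPM in homozygous KO 1 to 3, 79.9, 76.4 and 71.9 CPM in heterozygous KO 1 to 3 and 66.8, 73.2, 66.1 and 71.2 CPM in wild types 1 to 4. Homozygous KO 1 stood apart, and homozygous KO 2 was within the range of the heterozygous libraries (log2 fold change 0.40 ± 0.12, adjusted p = 0.0274). The call was lost under 8 of the 16 alternatives, with a fold change of 0.20 without homozygous KO 1. Dbf4, the activating subunit of the kinase that fires origins, measured 129, 99.4 and 107 CPM in homozygous KO 1 to 3, 92.5, 100 and 95.2 CPM in heterozygous KO 1 to 3 and 87.1, 86, 79.8 and 86.1 CPM in wild types 1 to 4. Its heterozygous libraries all lay above the wild types (log2 fold change 0.40 ± 0.08, adjusted p = 0.00418). Its catalytic partner Cdc7 was not called: homozygous KO 1 was at 102 CPM, but homozygous KO 2, at 63.2 CPM, was near the lowest wild type (log2 fold change 0.19, 95% interval -0.11 to 0.49).

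Clamp and clamp loader genes showed the lowest group median, 0.25, with 4 of 6 called. Pcna, the sliding clamp that tethers polymerases, rose 1.24-fold. Its loader, replication factor C, has 5 subunits, of which Rfc1, Rfc3 and Rfc4 were called and Rfc2 and Rfc5 were not. The calls of Rfc1 (0.19, adjusted p = 0.045), Rfc3 and Rfc4 were lost under 12, 9 and 5 of the 16 alternatives. Rfc1 lost its call with any wild type left out, and its fold change was 0.12 without homozygous KO 1. Rfc3 measured 61.9, 48.8 and 53 CPM in homozygous KO 1 to 3, 37.8, 47.4 and 47.7 CPM in heterozygous KO 1 to 3 and 43.2, 40.2, 36.5 and 47.9 CPM in wild types 1 to 4. Heterozygous KO 1, at 37.8 CPM, was among the lowest, and wild type 4 nearly reached homozygous KO 2 (log2 fold change 0.38 ± 0.12, adjusted p = 0.0326). Rfc2 measured 87.4, 68.4 and 75 CPM in homozygous KO 1 to 3, 76.9, 74.5 and 75 CPM in heterozygous KO 1 to 3 and 69.6, 73.6, 75 and 74.4 CPM in wild types 1 to 4. Homozygous KO 1 was the highest library and homozygous KO 2 the lowest, so the group spanned all others (log2 fold change 0.07 ± 0.07, adjusted p = 0.506, 95% interval -0.09 to 0.24). Rfc5 measured 95.3, 80.2 and 84.4 CPM in homozygous KO 1 to 3, 93.1, 95.8 and 89.1 CPM in heterozygous KO 1 to 3 and 83.6, 84.1, 81.8 and 88.1 CPM in wild types 1 to 4. Its heterozygous libraries were all above its wild types, and homozygous KO 2 was the lowest of the 10 (log2 fold change 0.04 ± 0.06, adjusted p = 0.695, 95% interval -0.10 to 0.18). Rfc2 and Rfc5 overlap Lat2 and Wsb2 on the opposite strand. The upper limit of the Rfc5 interval lay below the fold changes of Rfc3 and Rfc4, both 0.38. The 95% intervals of Rfc3 (0.13 to 0.63) and Rfc4 (0.15 to 0.61) still overlapped it, and the difference between subunits was not tested.

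Primase and polymerase genes had a median of 0.34, with 6 of 9 called. All 4 genes of the primase-polymerase alpha complex, which starts each new strand, rose, by 0.27 to 0.42 on the log2 scale. Prim1, its RNA-making subunit, measured 120, 84.7 and 89 CPM in homozygous KO 1 to 3, 78.2, 74.8 and 77.5 CPM in heterozygous KO 1 to 3 and 73.7, 73.4, 67.7 and 78.6 CPM in wild types 1 to 4. The homozygous libraries were above all others, and the heterozygous ones overlapped the wild types (log2 fold change 0.42 ± 0.10, adjusted p = 0.0135). Pole, the catalytic subunit of the leading-strand polymerase epsilon, measured 263, 183 and 206 CPM in homozygous KO 1 to 3, 186, 175 and 159 CPM in heterozygous KO 1 to 3 and 169, 170, 153 and 161 CPM in wild types 1 to 4. Homozygous KO 2 was below heterozygous KO 1 but above every wild type (log2 fold change 0.41 ± 0.10, adjusted p = 0.0142). Pole2, the second subunit of the same polymerase, measured 32.3, 18.3 and 20.8 CPM in homozygous KO 1 to 3, 24.4, 23.8 and 25.2 CPM in heterozygous KO 1 to 3 and 25.9, 24.8, 24.9 and 23 CPM in wild types 1 to 4. Homozygous KO 1 was the highest library and homozygous KO 2 and 3 were the 2 lowest (log2 fold change -0.05 ± 0.16, adjusted p = 0.854, 95% interval -0.39 to 0.30), so that without homozygous KO 1 the gene was called lower, with a log2 fold change of -0.33. In polymerase delta, Pold2 rose (0.34), while Pold1 (0.20, adjusted p = 0.245) and Pold3 (0.28, adjusted p = 0.0544) missed the threshold. The call of Pold2 was lost under 6 of the 16 alternatives, and its fold change was 0.20 without homozygous KO 1.

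**Figure D2:**
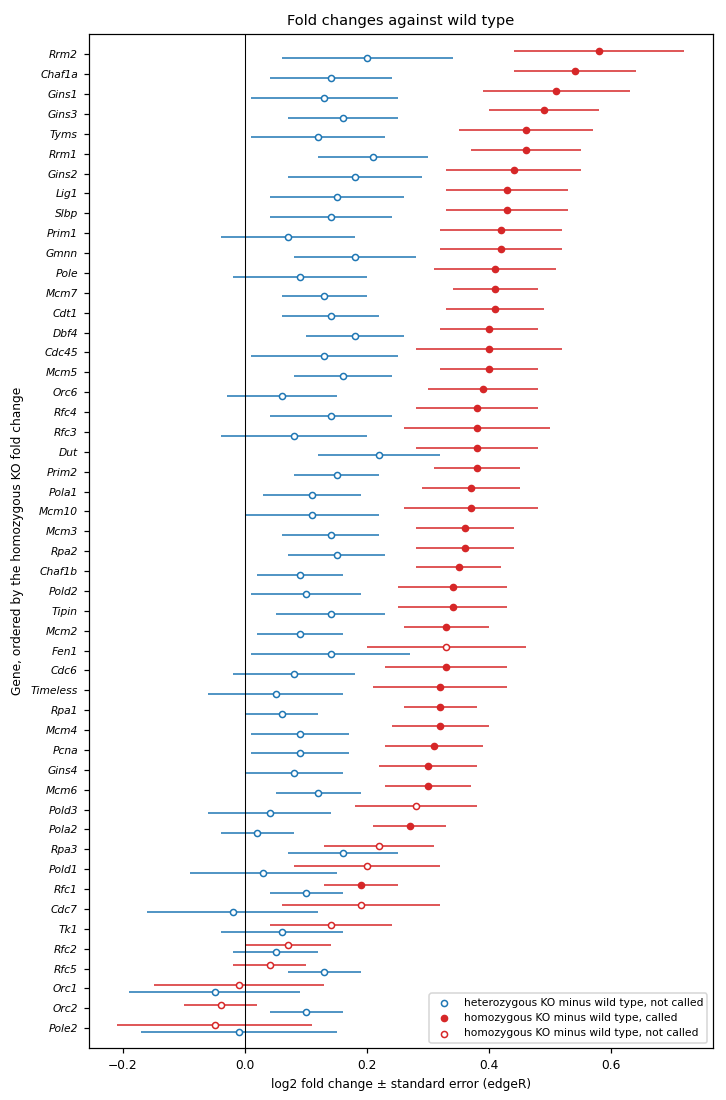
Log2 fold change against wild type for each of the 50 genes, with bars of 1 standard error, in red for homozygous KO and in blue for heterozygous KO. Filled points passed the adjusted p of 0.05; the homozygous values ran from -0.05 (Pole2) to 0.58 (Rrm2), and no heterozygous value passed.

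Genes of lagging-strand completion and single-strand binding had a median of 0.33, with 3 of 5 called. Lig1, the ligase that seals Okazaki fragments, measured 404, 286 and 326 CPM in homozygous KO 1 to 3, 277, 295 and 263 CPM in heterozygous KO 1 to 3 and 236, 252, 236 and 280 CPM in wild types 1 to 4. Homozygous KO 2, at 286 CPM, was just above wild type 4, at 280 CPM (log2 fold change 0.43 ± 0.10, adjusted p = 0.0117). Of replication protein A, which coats single-stranded DNA, Rpa1 (0.32) and Rpa2 (0.36) rose, and Rpa3 gave 0.22 (adjusted p = 0.105). Fen1, the nuclease that trims Okazaki fragment flaps, was low, at 4.69 to 7.19 CPM over the 10 libraries, and overlaps Tmem258. Its homozygous libraries lay above its wild types in all cases, and the adjusted p was 0.0794 (log2 fold change 0.33).

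Nucleotide supply genes showed the highest group median, 0.46, with 4 of 5 called. Rrm2, the regulated small subunit of ribonucleotide reductase, had the largest rise of the 50, with 878, 515 and 635 CPM in homozygous KO 1 to 3, 535, 540 and 483 CPM in heterozygous KO 1 to 3 and 454, 482, 414 and 462 CPM in wild types 1 to 4. Homozygous KO 1 was far above the next library, and homozygous KO 2 lay among the heterozygous ones (log2 fold change 0.58 ± 0.14, adjusted p = 0.0112). Rrm1, the large subunit, measured 802, 609 and 643 CPM in homozygous KO 1 to 3, 581, 605 and 543 CPM in heterozygous KO 1 to 3 and 490, 515, 451 and 538 CPM in wild types 1 to 4. The 3 groups did not overlap, with the heterozygous libraries in between (log2 fold change 0.46 ± 0.09, adjusted p = 0.00458). Tyms, thymidylate synthase, measured 196, 149 and 158 CPM in homozygous KO 1 to 3, 139, 128 and 130 CPM in heterozygous KO 1 to 3 and 122, 126, 102 and 138 CPM in wild types 1 to 4. Wild type 3 was the lowest library at 102 CPM, and wild type 4 reached the heterozygous range (log2 fold change 0.46 ± 0.11, adjusted p = 0.00945). Dut, which removes dUTP so that uracil stays out of DNA, measured 281, 207 and 206 CPM in homozygous KO 1 to 3, 203, 211 and 204 CPM in heterozygous KO 1 to 3 and 179, 178, 167 and 185 CPM in wild types 1 to 4. Homozygous KO 2 and 3 were at the level of the heterozygous libraries, and all 6 knockout libraries were above the wild types (log2 fold change 0.38 ± 0.10, adjusted p = 0.0129). Tk1, thymidine kinase of the salvage route, was not called, with homozygous KO 2 the lowest of the 10 libraries (log2 fold change 0.14, 95% interval -0.07 to 0.36).

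Fork protection, chromatin assembly and histone mRNA genes were all called, 5 of 5, with a median of 0.35. Chaf1a, the large subunit of the CAF-1 chaperone that places histones on new DNA, measured 144, 101 and 120 CPM in homozygous KO 1 to 3, 93.1, 96.6 and 87 CPM in heterozygous KO 1 to 3 and 83.9, 80.8, 83.3 and 87.7 CPM in wild types 1 to 4. The homozygous libraries were above all 7 others (log2 fold change 0.54 ± 0.10, adjusted p = 0.00213), the second largest rise of the 50. Slbp, which binds the stem-loop of replication-dependent histone mRNAs, measured 289, 198 and 224 CPM in homozygous KO 1 to 3, 195, 194 and 192 CPM in heterozygous KO 1 to 3 and 184, 179, 162 and 177 CPM in wild types 1 to 4. Homozygous KO 2 was barely above the heterozygous libraries (log2 fold change 0.43 ± 0.10, adjusted p = 0.0102). Chaf1b, the middle CAF-1 subunit, rose by 0.35, and the fork protection partners Timeless and Tipin by 0.32 and 0.34. The call of Timeless (adjusted p = 0.046) was lost under 13 of the 16 alternatives, among them each wild type left out, and its fold change was 0.15 without homozygous KO 1.

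Heterozygous loss gave no call among these genes. Of the 50, 0 passed in edgeR and 0 in DESeq2, where 0.0154% of all features (3 of 19511) were called in edgeR, and 3 genes (Dut, Rrm1 and Dbf4) had an unadjusted p under 0.05, against 7.28% of all features. The median log2 fold change was 0.12, beside -0.01 over all features, and 47 genes were positive, against 48.4% of all features. Within title numbers 44 to 51 the median difference was 0.13, with 46 genes positive. Within 56 to 63 it was 0.07, with 37 positive. With the Xist covariate the median was 0.08. Xist exceeded 100 CPM in 0 heterozygous and 3 wild-type libraries, so its part in this comparison can hardly be told apart from genotype. In 14 of the 50 every heterozygous library was above every wild type, against 4.41% of all features. Dut came highest, with a log2 fold change of 0.22 and a 95% interval from 0.01 to 0.43. The upper limits of the 95% intervals ran from 0.16 to 0.51 over the 50 genes. Both knockout comparisons share the 4 wild types.

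Compared directly with heterozygous KO, homozygous KO was called higher for 7 of the 50 genes and lower for 0, where 7.63% of all features were called higher. The 7 were Chaf1a (log2 fold change 0.40), Orc6 (0.33), Gins3 (0.32), Mcm7 (0.28), Rpa1 (0.26), Chaf1b (0.26) and Pola2 (0.25). The median over the 50 was 0.24, but 0.11 without homozygous KO 1 and 0.15 under scaling by library totals. Over all features the medians in these fits were 0.00, -0.01 and -0.08. At an unadjusted p under 0.05, 36 passed, against 28.8% of all features, and in 25 the homozygous libraries were all above the heterozygous ones, against 16.5% of all features. The number of genes called, 7 in the full fit, rested on the choice of libraries. It was 25 without homozygous KO 2, 2 without homozygous KO 3 or without heterozygous KO 2, and 0 without either of the remaining heterozygous libraries. Without homozygous KO 1 the single call was Pole2, which was lower, and under scaling by library totals it was Orc2, also lower. Group means stood in the order wild type, heterozygous, homozygous for 45 of the 50 genes, and the step from wild type to heterozygous passed the test for none of them. The share of all features in this order was not worked out. Because the genes were listed with earlier results known, the count is not separate support for an order by dose.

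**Figure D3:**
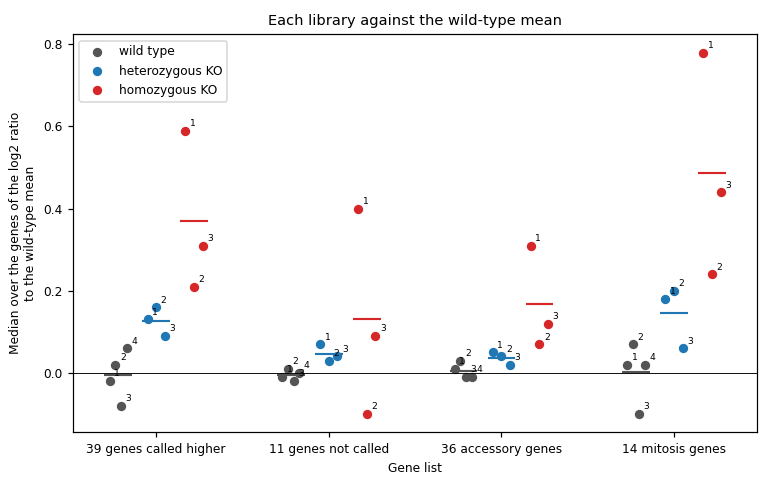
Each point is 1 library and gives the median, over the genes of a list, of the log2 ratio to the wild-type mean; numbers are replicates and horizontal lines are group means. For the 39 called genes the homozygous libraries were at 0.21 to 0.59 and the heterozygous ones at 0.09 to 0.16, while for the 11 uncalled genes homozygous KO 2 was at -0.10 and homozygous KO 1 at 0.40. The 39 and the 11 were split by the call of homozygous KO against wild type in these same libraries. The gap between these lists therefore follows from that choice.

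A wider list of 36 accessory replication and nucleotide genes moved less evenly. Of these, 14 rose, 2 fell and 20 were not called, with a median of 0.19. Without homozygous KO 1 the count was 8 higher and 2 lower. The largest rises were in Asf1b, a histone chaperone that hands histones to CAF-1 (0.57), Dna2, a nuclease and helicase at Okazaki fragments (0.57), and Clspn, which carries checkpoint signals at the fork (0.51). Dna2 measured 119, 85.6 and 96.4 CPM in homozygous KO 1 to 3, 67.1, 67.2 and 67.1 CPM in heterozygous KO 1 to 3 and 69.6, 68.5, 67.8 and 65.3 CPM in wild types 1 to 4. The homozygous libraries were well above a narrow band formed by the other 7. Samhd1, the enzyme that breaks down deoxynucleotide triphosphates, went the other way and measured 16.9, 8.95 and 6.49 CPM in homozygous KO 1 to 3, 58.8, 54.2 and 55.6 CPM in heterozygous KO 1 to 3 and 59.6, 62, 73.3 and 51.7 CPM in wild types 1 to 4. Its mean was 5.72 times higher in wild type than in homozygous KO (log2 fold change -2.51 ± 0.27, adjusted p = 7.2e-05), with no overlap. Pold4, the smallest subunit of polymerase delta, also fell (-0.54 ± 0.13, adjusted p = 0.0119).

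Genes of other programs moved with these. All 14 of 14 mitosis genes, among them Mki67, Cdk1 and Cdc20, rose in homozygous KO, with a median of 0.51, and their summed level was 7087 to 9840 CPM in homozygous KO, 6052 to 7076 CPM in heterozygous KO and 5160 to 6394 CPM in wild type. Homozygous KO 1 was again the highest. All 6 B-cell markers fell, and their summed level was 6.37 to 8.92 CPM in homozygous KO against 34.2 to 55.8 CPM in wild type, with Igkc at 0 in homozygous KO 2 and 3 and Ms4a1 and Pax5 at 0 in homozygous KO 3. Of 10 thymocyte markers, Cd8a and Lck rose, Rag1 and Dntt fell and 6 were not called. Their log2 fold changes were positive for 5 and negative for 5, with a median of 0.01. The sum was 8818 to 9205 CPM in homozygous KO and 10593 to 11893 CPM in wild type, and it is led by the markers with the highest levels, among them Rag1. The part of the mitosis, B-cell and thymocyte genes in the rise of the replication genes was not tested.

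Erythroid markers summed to 1778 CPM in homozygous KO 1 and 1961 CPM in homozygous KO 2, both above the highest wild type at 1717 CPM. Homozygous KO 3 had the lowest erythroid sum of the 10 libraries, 340 CPM, and a median of 0.28 over the replication genes. Of the 7 erythroid markers 2 were called higher, Epor and Klf1, and none was at 0. Of the 7 myeloid markers S100a8 and S100a9 rose and Csf1r fell, and the sum was 53.4 CPM in homozygous KO 1, 211 CPM in homozygous KO 2 and 110 CPM in homozygous KO 3, against 53.8 to 63 CPM in wild type. The 7 epithelial markers summed to 43.3 to 118 CPM in homozygous KO and 41.4 to 61 CPM in wild type, with 2 higher (Krt5 and Krt14) and 1 lower (Aire). The 7 stromal markers summed to 168 to 206 CPM in homozygous KO and 168 to 190 CPM in wild type. Of these 7, 3 were called higher and 1 lower, and their median log2 fold change was 1.06. Their median log2 ratio to the wild-type mean was 0.24, 2.07 and 0.07 in homozygous KO 1 to 3. In the wild types it ran from -0.26 to 0.59. None of the myeloid, epithelial or stromal markers was at 0, and the part of these and of the erythroid markers in the result was not tested.

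Per length, levels within the replication machinery were far from even. RPKM values, the CPM divided by the exon length in kilobases, ran in wild type from 186 ± 8.2 for Pcna and 163 ± 10.2 for Rrm2 (SD, n = 4) down to 4.92 ± 0.495 for Gins2 and 2.13 ± 0.194 for Fen1, an 87.3-fold span around a median of 19.9 RPKM. Both genes at the low end overlap others on the opposite strand, Fen1 with Gm10143 and Tmem258 and Gins2 with Gm20388 and Gse1. Without the strand setting used in counting, what these overlaps did to their counts, and so to the span, is not known. The ring subunits Mcm3 to Mcm7 lay together at 81.3 to 98.3 RPKM, Mcm2 at 46.2 and Mcm10 at 11.4 RPKM. Before division by length, the mean wild-type CPM was 322 for Mcm2 and 305, 318 and 335 for Mcm3, Mcm4 and Mcm5. The length used was 6956 bases for Mcm2 and 3752, 3589 and 3993 bases for Mcm3, Mcm4 and Mcm5, so the lower RPKM of Mcm2 came from its length. Among the origin recognition subunits Orc6 stood at 19.7, Orc2 at 15.3 and Orc1 at 9.06 RPKM. Of the 49 neighbouring pairs in the order of levels, 19 differed by more than the larger of their SDs, so most neighbours cannot be ranked. Exon lengths were the union of all annotated exons of a gene, not the length of a single mRNA, so differences in RPKM between genes also carry differences in annotation. They came from GENCODE M21 on GRCm38, another annotation than the one counted.

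**Figure D4:**
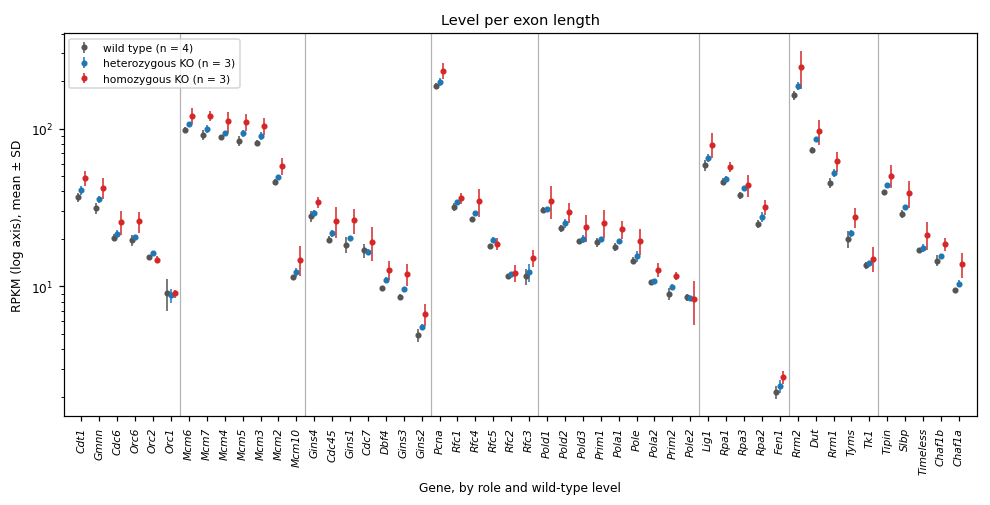
RPKM on a log axis for the 50 genes, grouped by role and ordered by wild-type level, as mean ± SD of each group. Differences between genes, from 2.13 RPKM (Fen1, which overlaps other annotated genes) to 186 RPKM (Pcna) in wild type, were far larger than differences between the groups.

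Counting could mix some of these genes with neighbours. Of the 50, 26 overlap another annotated gene, 13 of them on the same strand. The strand setting used in counting is not given in the sources used here. Of the 24 that overlap no other gene, 21 were among the 39 called. Calls for 29 of the 39 were kept whichever single library of the 2 groups was left out, and these included all of Mcm2 to Mcm7, Rrm1, Rrm2, Tyms, Pcna and Chaf1a.

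**Figure D5:**
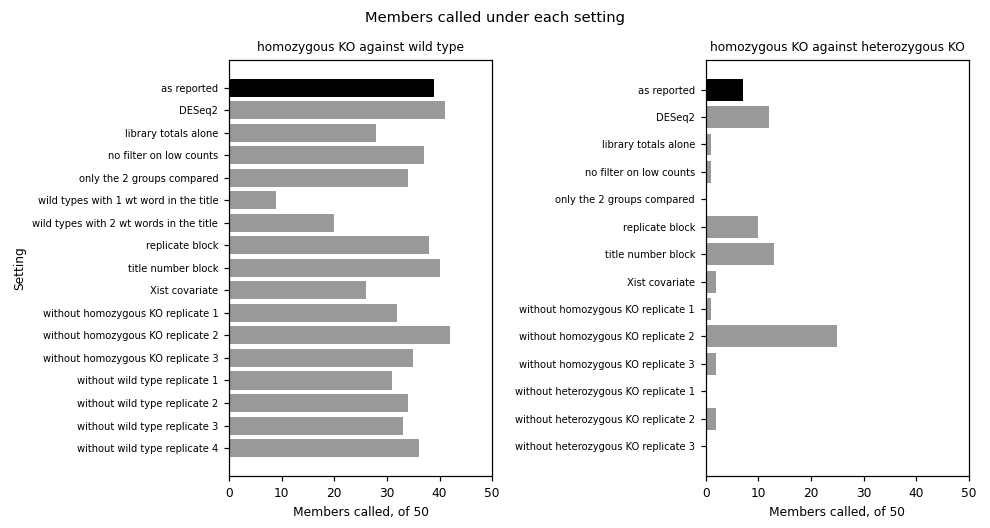
Number of the 50 genes called in either direction under each analysis setting, for homozygous KO against wild type (left) and against heterozygous KO (right); the black bar is the reported setting. On the left the count ran from 9 to 42, with 39 reported, and on the right from 0 to 25, with 7 reported.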

How the data were processed

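Per the labels, total RNA from mouse thymus was isolated with the RNeasy Mini Kit, made into stranded, ribosomal RNA-depleted libraries (KAPA RNA HyperPrep with RiboErase) and sequenced on an Illumina NovaSeq. The submitters' processing notes name CASAVA, STAR 2.4.1d, HTSeq 0.6.1p1 and the mouse build NCBIM37 (mm9); the annotation and strand setting are not given in the sources used here. The authors deposited raw counts per gene for the 10 libraries in 1 table, and those counts were used as deposited. Rows without an Ensembl identifier held 1.74% to 2.29% of the counts and stayed in the library totals (39833850 to 122380785). Taken over all features, the spread between libraries of a group exceeded counting error. This need not hold for each gene, such as Fen1, whose lowest count was 191, or Pold3, whose wild types lay close together.

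Groups came from the sample titles. A quasi-likelihood test in edgeR 4.0.16 (R 4.3.3; TMM scaling, filterByExpr) was fitted once over the 10 libraries with group as the only term, and p-values were adjusted by Benjamini-Hochberg over 19511 features, called at 0.05. Standard errors are the log2 fold change over the root of its F statistic, 95% intervals use the fit's degrees of freedom, and the test was checked on simulated data. RPKM values divide the scaled CPM by the length of the union of all annotated exons from GENCODE M21. Since the files use another build than the reference, gene coordinates are not given, and promoter coordinates are those of RefSeq on GRCm38.p6. No pair of libraries within a group agreed within sampling noise (chi-square per degree of freedom 12.9 or more).

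The 50 genes and all lists were chosen with earlier results of these data known, so no list was tested. Values in every library are given for the 20 called genes with the largest change in homozygous KO against wild type, the 5 with the smallest change, and any gene called in heterozygous KO (none was). Of the accessory list, the 3 largest rises and up to 3 largest falls among called genes are named, and all genes called between the knockouts. Genes named outside this rule are given as examples of their role. Alternatives were DESeq2 1.42.0, library totals without TMM, no filter, only the 2 groups compared, either pair of wild types by title form, blocks by replicate number or by title number, a covariate for Xist over 100 CPM, and each library left out in turn.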

Additional observations from a re-analysis of the deposited data

Results flagged for a closer look

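In 7 of the 50 genes 1 of the 4 wild types lay far from the other 3: its gap to the nearest neighbour took up more of the group's range than Dixon's 95% critical value. Chance gives such a gap in about 1 of 20 groups of 4. Wild type 4 was high for Orc1 (0.84 of the range), Gins2 (0.874) and Gins4 (0.886), and wild type 2 was high for Tk1 (0.833). Wild type 3 was low for Cdc6 (0.837) and Dbf4 (0.853), and wild type 1 was low for Mcm2 (0.843).

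For 6 of the genes not called, homozygous KO minus wild type had opposite signs within the 2 ranges of title numbers, a difference between the ranges that was not tested. In 3 of them every homozygous library was above every wild type in the first range and below the wild type in the second. Of these, Orc1 was 0.19 higher on the log2 scale within 44 to 51 and gave -0.43 within 56 to 63. Rfc5 gave 0.20 and -0.10, and Pole2 gave 0.36 and -0.23. In the other three the values were 0.02 and -0.05 for Orc2, 0.27 and -0.05 for Rfc2 and 0.49 and -0.01 for Rpa3. The first range holds 1 homozygous library and the second holds 1 wild type.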

How the results depend on the processing

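All 39 genes called higher in homozygous KO against wild type had a positive log2 fold change under each of 16 alternatives; 29 kept the call with each library left out in turn, and 8 under every alternative. Called were 41 genes with DESeq2, 28 with library totals alone, 37 without a filter, 34 with only the 2 groups, 40 with the title-number block and 26 with the Xist covariate. The count moved most with fewer controls, to 9 (wild types with 1 wt word in the title) and 20 (with 2). The median log2 fold change was 0.35 and 0.36 in these fits. Leaving out 1 library gave 31 to 42 genes called, and a median log2 fold change of 0.24 to 0.44. With library totals alone the median was 0.26, beside a median of -0.11 over all features under that scaling. The share of all features called under each alternative was not worked out. The accessory list, with 16 called, gave 7 and 6 with either pair of wild types, 10 with the Xist covariate and 10 to 19 with 1 library left out, the lowest without homozygous KO 1.

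Between homozygous and heterozygous KO, 7 genes were called, against 12 with DESeq2, 1 (Orc2, lower) with library totals alone, 1 without a filter, 0 with only the 2 groups, 13 with the title-number block, 2 with the Xist covariate and 0 to 25 with 1 library left out. The accessory list had 5 called, 8 with DESeq2, 10 with the title-number block and 4 to 8 with 1 library left out. In heterozygous KO against wild type 0 of the 50 and 0 accessory genes were called under all alternatives. Apart from the smaller sets of libraries and genes in these fits, the cause of a shift was not tested.

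Single genes changed sign only among those not called. Orc1 (-0.01) gave 0.00 with DESeq2, 0.14 against the wild types with 2 wt words, 0.16 with the replicate block, 0.07 with the Xist covariate, 0.05 without homozygous KO 2 and 0.16 without wild type 4. Rfc2 (0.07) gave -0.02 and Rfc5 (0.04) gave -0.06 with library totals alone. With 1 library left out, Orc1 ran from -0.08 (without wild type 3) to 0.16, Rfc5 from -0.04 to 0.10, Pold1 from -0.01 to 0.33, Pole2 from -0.33 to 0.12 and Cdc7 from -0.02 to 0.35; Pole2 was called lower without homozygous KO 1, and Pold1 higher without homozygous KO 2. Without homozygous KO 1, Rfc2 gave -0.03, Rfc5 -0.04, Pold1 -0.01, Tk1 -0.01 and Cdc7 -0.02. Pole2 (-0.05) gave 0.05 with the title-number block, 0.12 without homozygous KO 2 and 0.05 without homozygous KO 3.

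Same-numbered replicates did not pair: correlations of their deviations from the group means ran from -0.104 to 0.225 over the 9 pairs. With the replicate block 38 of the 50 genes were called against wild type and 10 against heterozygous KO. The lowest count of any of the 50 genes in a library was 191.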
